A study of Mus musculus with 12 samples.

Results

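Sertoli cell genes were followed in the testes of aging mice. The 36 genes of this set were taken as genes of Sertoli cells, though several of them are also expressed in other cells. They were found in the table by their symbols. All 36 were found among the 31679 genes and loci to which the 71967 transcripts of the table were summed. Testis RNA came from C57BL/6 male mice, an inbred laboratory strain with no transgene or treatment in any group, aged 3 months (3M), 6 months (6M), 12 months (12M) or 18 months (18M). There were 3 mice and 3 libraries at each age, 12 libraries in all, and by the study's methods it is not known if the mice of an age shared a litter. The RNA was that of whole testis, so the values belong to Sertoli cells only as far as other testis cells do not use the same genes, and in such bulk RNA fewer cells of a type and less RNA per cell cannot be told apart.

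Sertoli cells are the somatic cells of the seminiferous tubule. They enclose the germ cells, form the blood-testis barrier with their junctions, supply lactate to spermatocytes and spermatids, engulf the residual bodies and dying germ cells, and answer to follicle-stimulating hormone and testosterone. They arise in the fetal gonad under Sox9, stop dividing around puberty, and in the adult each cell supports a limited number of germ cells, which makes their genes a natural set to follow in an aging testis.

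The libraries held between 50924104 and 71803379 estimated reads, and reads of the 36 genes made up between 0.369% and 0.430% of a library. Slc2a3, Ldha and Clu together took 72.6% of these reads. Before the ages are compared, 1 library has to be named, since the mouse 6M-3 stood apart. Of the 36 genes, 16 had their highest CPM (the read count scaled to the normalized size of the library) in 6M-3, against 12.2% of all genes tested, and by FPKM (which is also scaled to transcript length) it was 17 genes against 14.8%. For the 27 genes whose mean FPKM was at least 1, the median log2 ratio of 6M-3 to the mean of the 12 libraries was 0.23, while the other 11 libraries lay between -0.09 and 0.01. In direct comparison within the age, 22 of these 27 genes were higher in 6M-3 than in 6M-1, with a median ratio of 1.25, and 21 were higher than in 6M-2, with a median ratio of 1.18. Among markers of other somatic cells, the median log2 ratio in the same library was 0.52 for 9 Leydig cell genes and 0.41 for 7 macrophage genes, with 4 genes of each list at their highest there. It was 0.18 for 6 peritubular myoid genes and 0.11 for 6 endothelial genes. The summed CPM of the Leydig cell genes, 1452 in 6M-3, was the highest of the 12 libraries. The sums of the macrophage, peritubular myoid and endothelial genes in 6M-3, at 48.3, 332 and 37.4, lay within the range of the other libraries. The 7 spermatid genes were low there, with a median of -0.20. The part of these markers in the Sertoli cell values of 6M-3 was not tested, and 6M-3 stays in the values below unless they are given without it. Without 6M-3 the fitted change with age turned its sign in 2 of the 36 genes, Sox9 and Mro, and kept it in the other 34.

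**Figure D1:**
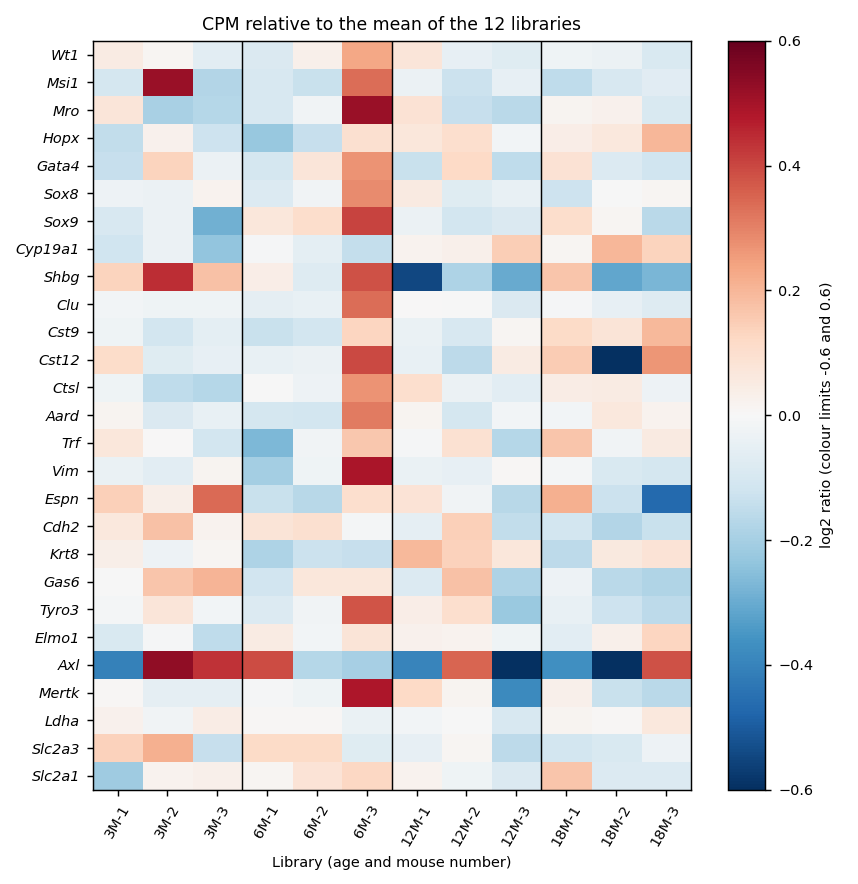
CPM in each of the 12 libraries for the 27 Sertoli cell genes whose mean FPKM was at least 1, as the log2 ratio to the mean of the 12 libraries; genes are ordered by role and level, and the colours end at -0.6 and 0.6. The column of 6M-3 is mostly red, with a median log2 ratio of 0.23, and the next highest median is 0.01, in 18M-1.

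The genes covered a wide range of levels. By FPKM summed over the transcripts of a gene, 27 of the 36 had a mean of 1 or more, 7 of these had a mean of 50 or more, and 9 had a mean under 1. The highest means were those of Ldha with an FPKM of 463, Clu with 376 and Slc2a3 with 300.02, and the lowest were those of Il1a with 0.144, Wnt4 with 0.0887 and Esr2 with 0.0487. The coefficient of variation of CPM over the 12 libraries was 2.85% for Ldha and 19.2% for Cst12, and for the other 5 genes with a mean FPKM above 50 it lay between 7.71% for Cst9 and 8.63% for Slc2a3. At lower levels it was 5.25% for Elmo1 and 31.0% for Axl.

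**Figure D2:**
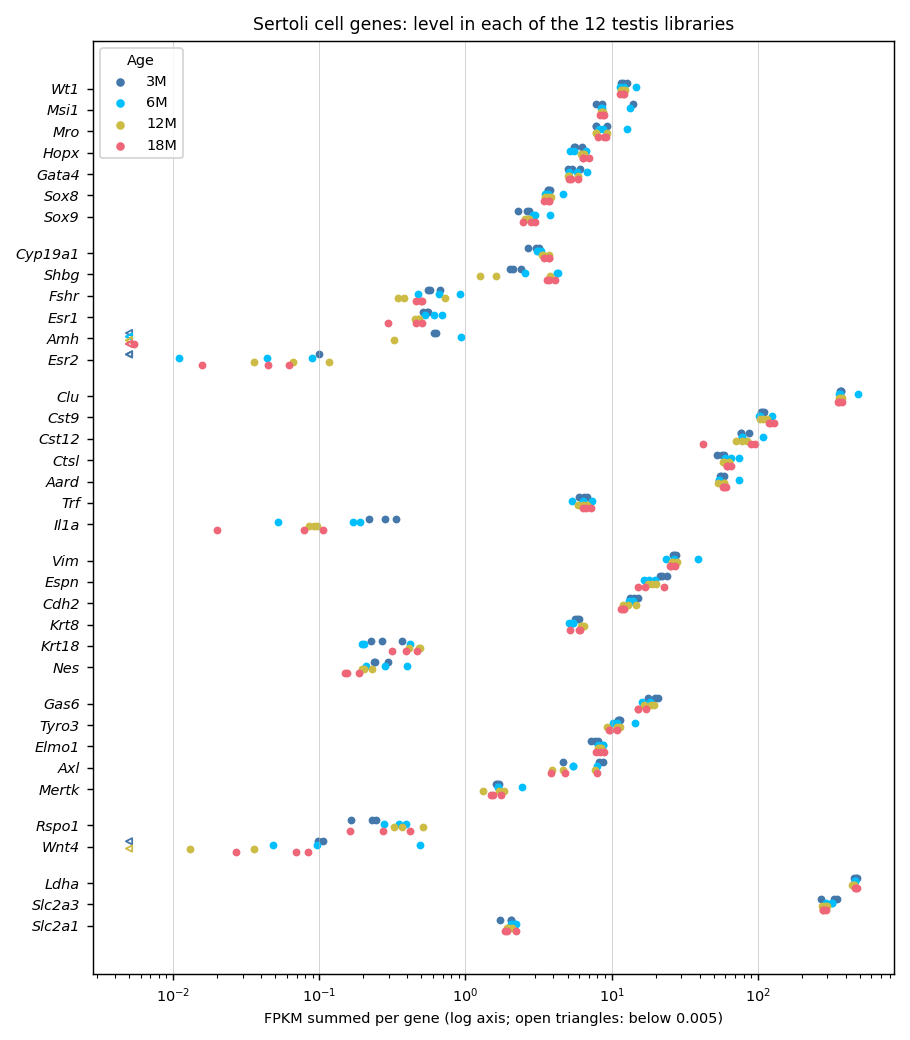
FPKM of the 36 Sertoli cell genes in each of the 12 testis libraries on a log axis, grouped by role and coloured by age, with open triangles for values below 0.005. Mean FPKM ran from 463 for Ldha to 0.0487 for Esr2, and the 4 ages lie over each other for most genes.

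The age series was tested with the slope of the counts on age over all 12 libraries, given here as the fitted log2 change from 3 to 18 months with its 95% interval. All 36 genes passed the filter on low counts over the 12 libraries. None of the 36 genes passed an adjusted p of 0.05 in edgeR's quasi-likelihood test. Of the 25348 genes and loci tested, here called all genes, 0.178% did (45). The smallest adjusted p among the 36 was 0.131, for Il1a. At an unadjusted p of 0.05 or less, 11 of the 36 were counted (30.6%), against 15.3% of all genes. Of these 11, the fitted slope was positive for Cst9, Cyp19a1 and Hopx, a direction in which 7.45% of all genes were counted, and negative for Amh, Cdh2, Esr1, Gas6, Il1a, Nes, Shbg and Slc2a3, where 7.81% were. DESeq2's test of the same slope called Cdh2 and Nes, with adjusted p-values of 0.041 and 0.047, and called 567 genes in all. DESeq2 was run without the filter on low counts, so the 567 are not a part of the 25348. The median fitted change of the 36 was -0.08, with 13 above 0 and 23 below, and the median over all genes tested was 0.01.

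The intervals say how large a change the libraries left possible. For 24 of the 36 genes the 95% interval lay within a 1.5-fold change in either direction, against 63% of all genes, and for 27 it lay within a 2-fold change, against 82.2%. The other 9 had intervals that reached beyond a 2-fold change. Among the 27 genes at a mean FPKM of at least 1, the fitted changes ran from -0.44 for Shbg to 0.25 for Cyp19a1.

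**Figure D3:**
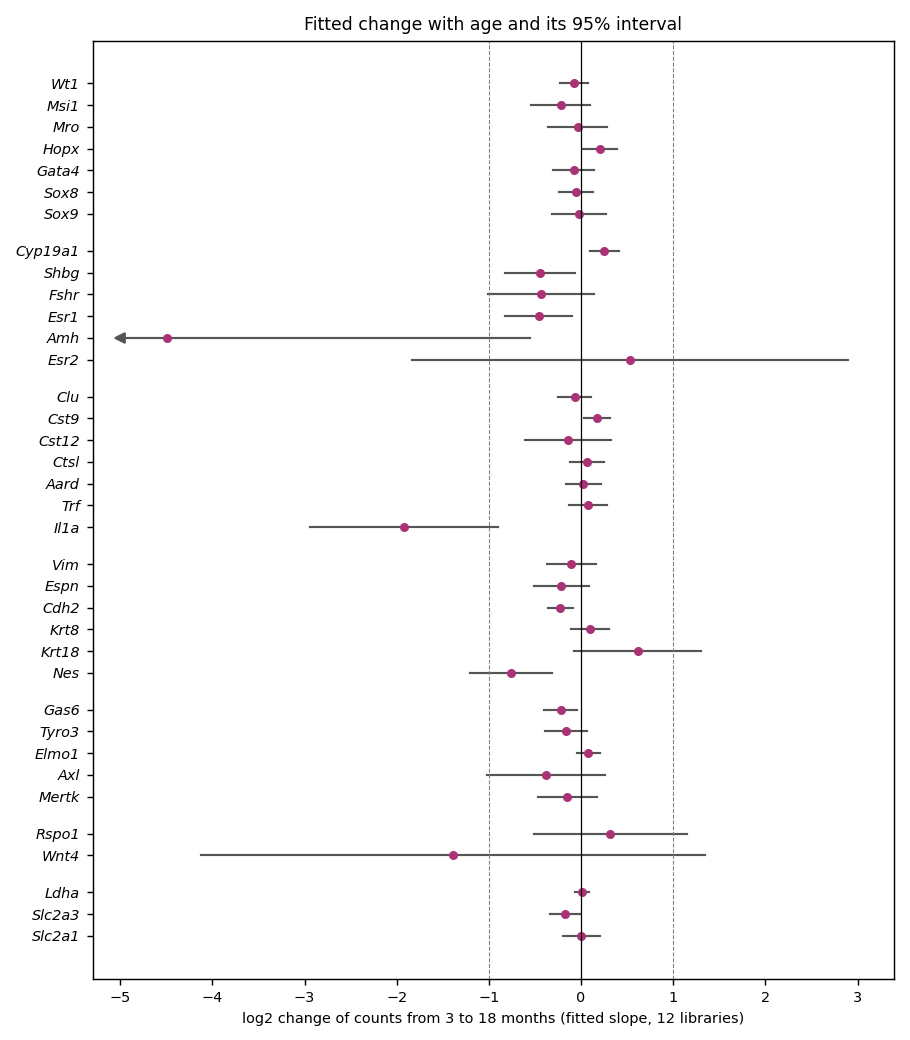
Fitted log2 change of counts from 3 to 18 months for the 36 Sertoli cell genes (points) with 95% intervals (lines), grouped by role; dashed lines mark a 2-fold change, and the arrow marks an interval that runs past the axis. The widest intervals belong to Amh, Wnt4 and Esr2, and none of the 36 genes passed the adjusted test.

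Between single ages the count of called genes was also 0 in each comparison. The filter left out Esr2 between 3M and 6M, Amh between 6M and 12M and between 3M and 18M, and Amh and Wnt4 between 12M and 18M. At an unadjusted p of 0.05 or less, the comparison of 3M with 6M gave 2 of 35 genes (Rspo1 and Sox9), where 3.95% of all genes passed, and 0.0729% passed the adjusted test. Between 6M and 12M it gave 5 of 35 (Esr1, Krt8, Shbg, Sox9 and Wnt4), with 7.5% of all genes at that p and 0.0404% after adjustment. Between 12M and 18M it gave 1 of 34 (Cst9), with 3.57% and 0.0202%. Between 3M and 18M it gave 7 of 35 (Cdh2, Cst9, Ctsl, Cyp19a1, Gas6, Il1a and Nes), with 12% and 0.0647%. The test for any difference among the 4 ages gave 7 of 36 at an unadjusted p, against 8.99% of all genes, and 0 after adjustment, against 0.0789%. These comparisons share libraries, the 6M libraries among them, and so are not separate evidence. Without 6M-3, the count of called genes was 0 again in the slope, the test for any age and both comparisons that use the 6M mice.

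Of the 36 genes, 9 had 3M and 18M libraries that did not overlap in CPM, and 19.3% of all genes tested were of this kind. Cst9, Cyp19a1 and Hopx were higher at 18M, where 9.45% of all genes were, and Il1a, Nes, Cdh2, Gas6, Fshr and Tyro3 were lower, where 9.84% were.

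**Figure D4:**
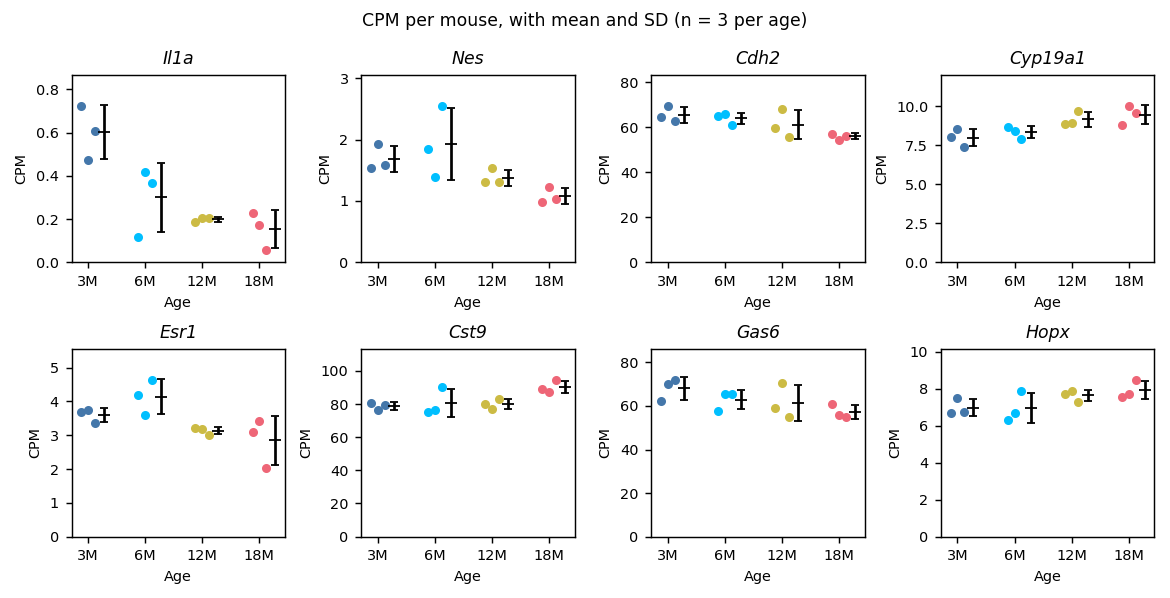
CPM of 8 Sertoli cell genes in each mouse by age (coloured points), with the mean and SD of the 3 mice (black); each axis starts at 0. In Il1a, Nes, Cdh2 and Gas6 the 18M mice lie below the 3M mice, in Cyp19a1, Cst9 and Hopx above them, and in Esr1 1 of the 18M mice, at 3.42 CPM, lies within the 3M range.

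The transcription factors that set and hold Sertoli cell identity showed no called change. Sox9, which directs the fetal gonad to the testis, was at 11.6, 12.1 and 10.1 CPM in the 3M mice, 13, 13.3 and 16.4 at 6M, 12.1, 11.5 and 11.7 at 12M, and 13.3, 12.5 and 11.1 at 18M. The 6M mice had the highest mean, and 6M-3 held the highest value of Sox9. Its fitted change was -0.02 with an interval from -0.31 to 0.27 (adjusted p = 0.954), and 0.05 without 6M-3, so that its sign depends on this library. Wt1, a zinc finger factor needed for Sertoli cells to keep their fate, was at 39.7, 38.8 and 36.7 CPM at 3M, 36.2, 39.3 and 45.1 at 6M, 40.4, 37.1 and 36.6 at 12M, and 37.8, 37.6 and 36.1 at 18M. The 3M and 18M ranges of Wt1 overlapped, and its fitted change was -0.08 with an interval from -0.23 to 0.07. Gata4, a GATA factor shared with Leydig cells, was at 18.5, 22.3 and 19.8 CPM at 3M, 18.9, 21.4 and 24.5 at 6M, 18.5, 22.1 and 18.3 at 12M, and 21.6, 19.2 and 18.7 at 18M. Its groups overlapped and its fitted change was -0.08 with an interval from -0.30 to 0.15.

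The other genes of this group differed in their spread, with coefficients of variation of 7.59% for Sox8, 8.71% for Hopx, 15.1% for Mro and 16.8% for Msi1. Sox8, the partner of Sox9 in the SoxE family, had a fitted change of -0.06. Mro (maestro) had -0.04, and 0.06 without 6M-3, and Msi1, an RNA-binding protein of the Musashi family, had -0.22, with an adjusted p of 0.494. Msi1 was at 57.6 CPM in 3M-2 and 50.8 in 6M-3, while the remaining libraries lay between 35.6 and 39.2. In 3M-2 the assembled transcripts MSTRG.15981.9 and MSTRG.15981.10 held 1108 and 1104 reads, against 90 to 211 and 136 to 373 elsewhere. In 6M-3 the assembled transcript MSTRG.15981.7, which ends at chr5:115487881, held 819 reads, against at most 2 elsewhere. How many of these reads came from Msi1 was not tested. Hopx, a small homeodomain protein without DNA binding, was at 6.66, 7.51 and 6.76 CPM at 3M, 6.29, 6.69 and 7.87 at 6M, 7.72, 7.90 and 7.29 at 12M, and 7.57, 7.71 and 8.47 at 18M. Every 18M mouse was above every 3M mouse, by a narrow gap. The fitted change of Hopx was 0.20 with an interval from 0.02 to 0.39, and its adjusted p was 0.291. Of the 7 genes of this group, 5 were highest in 6M-3.

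Hormone signals, receptors and the estrogen-forming enzyme came next. Fshr, the receptor through which follicle-stimulating hormone reaches Sertoli cells, was low in whole testis, with a mean FPKM of 0.564. It was at 1.45, 1.41 and 1.70 CPM at 3M, 1.68, 1.21 and 2.29 at 6M, 1.85, 0.897 and 0.945 at 12M, and 1.15, 1.27 and 1.3 at 18M. The 18M mice were all below the 3M mice, but the lowest Fshr values belonged to 12M mice. The fitted change was -0.43 with an interval from -1.01 to 0.14, and -0.32 without 6M-3 (adjusted p = 0.455 with it and 0.548 without).

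Amh, the hormone by which the fetal Sertoli cell removes the Müllerian duct and a mark of immature Sertoli cells, was near the limit of detection. The Amh transcript held 59, 1 and 63 reads at 3M, 85, 0 and 1 at 6M, 35, 0 and 1 at 12M, and 1, 1 and 1 at 18M. In every age but 18M the libraries thus fell to either 35 reads and more or 1 read and fewer, and the 18M mice were all of the second kind. The summed reads were 123 at 3M and 3 at 18M, a ratio of 44.4 after scaling to library size. The estimated counts were rounded up, so a count of 1 can stand for less than 1 read. Amh FPKM was 0.633, 0.0036 and 0.610 at 3M and 0.0012, 0.0054 and 0.0020 at 18M. The exact 95% interval of the ratio, from 14.8 to 218, takes the counts as whole reads. It covers neither the rounding nor the difference among the 3M mice, so it does not bound the change. The fitted slope (adjusted p = 0.276) depends on the small count that the model adds, and gives no bound. The comparison of 3M with 18M had not kept Amh after the filter on low counts. Without 3M-2 it did, and Amh was then called, with a log2 change of -5.89 and an adjusted p of 0.0127. The library left out was the 3M one with 1 read. Amh then passed the filter only through the 3M libraries with 59 and 63 reads. The call follows from that choice and is no separate evidence of a change. The Amh row spans chr10:80805248-80807648 (mm10, plus strand, 5 exons). Directly upstream lies Sf3a2, a splicing factor gene, and 2 assembled Sf3a2 transcripts run on over Amh to 80807618 and 80807648. These 2 transcripts held between 498 and 831 reads in every library, and how many of them came from Amh was not tested.

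Shbg, which in the testis gives the androgen-binding protein secreted by Sertoli cells, was at 8.66, 10.7 and 8.92 CPM at 3M, 8.10, 7.49 and 10.3 at 6M, 5.40, 6.95 and 6.41 at 12M, and 8.87, 6.36 and 6.53 at 18M. The lowest value belonged to a 12M mouse, and 1 of the 18M mice lay within the 3M range. The fitted change of the gene was -0.44 with an interval from -0.82 to -0.06 (adjusted p = 0.269). The reads summed for Shbg include those of an assembled transcript that takes in the neighboring gene Atp1b2. How many of them came from Atp1b2 was not tested, so the interval does not cover this. Under FPKM, which weights the transcripts by length, the sign turned, with 0.32 in limma on log2(FPKM + 1).

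The reason to look at single transcripts of Shbg is that its reference transcript, NM_011367, was the only one of 86 transcripts of the set called between 3M and 18M (1.16%, against 0.108% of all 54472 transcripts tested). At an unadjusted p of 0.05 or less 7 of the 86 were counted, against 5.4% of all. It was at 0.735 ± 0.141 CPM at 3M and 5.13 ± 0.0948 CPM at 18M (SD, n = 3 each), a log2 change of 2.79 with an SE of 0.21 and an adjusted p of 0.0431. Its reads were 47, 39 and 36 at 3M, 294, 302 and 60 at 6M, 29, 286 and 46 at 12M, and 286, 269 and 375 at 18M. These values lay in a low range from 29 to 60 and a high range from 269 to 375, with both ranges present at 6M and at 12M. An assembled transcript of the same locus, MSTRG.3048.1, held 408, 572 and 477 reads at 3M, 117, 76 and 529 at 6M, 289, 86 and 361 at 12M, and 217, 66 and 93 at 18M. It was high in the libraries in which the reference transcript was low, and its share of the Shbg reads ran from 19.7% to 93.6%. The sum of both was 455, 611 and 513 reads at 3M and 503, 335 and 468 at 18M. The slope called none of 91 transcripts of the set, where 0.0103% of all transcripts were called, and counted 6 at an unadjusted p of 0.05 or less, where 7.15% of all were. The Shbg call between 3M and 18M was lost each time 1 of the 6 libraries was left out.

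Both transcripts lie on the minus strand of chromosome 11 in mm10. The reference transcript spans chr11:69614816-69617905 in 8 exons. The assembled one spans chr11:69599750-69618237 in 16 exons and takes in Atp1b2, the neighboring gene of a sodium pump subunit at chr11:69599750-69605960. The first exon ends at 69617749 in both but starts further upstream in the assembled transcript, at 69618237. The RefSeq promoter window of Shbg (GRCm38.p6, the build of mm10, chr11:69617856-69618155) is shown because all 300 of its bases lie inside that longer first exon. The 250 bases before the annotated start are in lower case, and the first 50 bases of the annotated transcript are in capitals.
Shbg: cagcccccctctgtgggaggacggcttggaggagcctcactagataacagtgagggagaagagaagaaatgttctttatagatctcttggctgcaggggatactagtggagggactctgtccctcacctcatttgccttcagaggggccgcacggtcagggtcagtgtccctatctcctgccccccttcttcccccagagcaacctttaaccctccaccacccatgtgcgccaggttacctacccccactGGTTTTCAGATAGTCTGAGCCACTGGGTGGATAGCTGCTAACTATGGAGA
The window is thus promoter in the annotation and exon in the assembly, and reads from the 2 transcripts can be told apart only outside their shared exons.

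**Figure D5:**
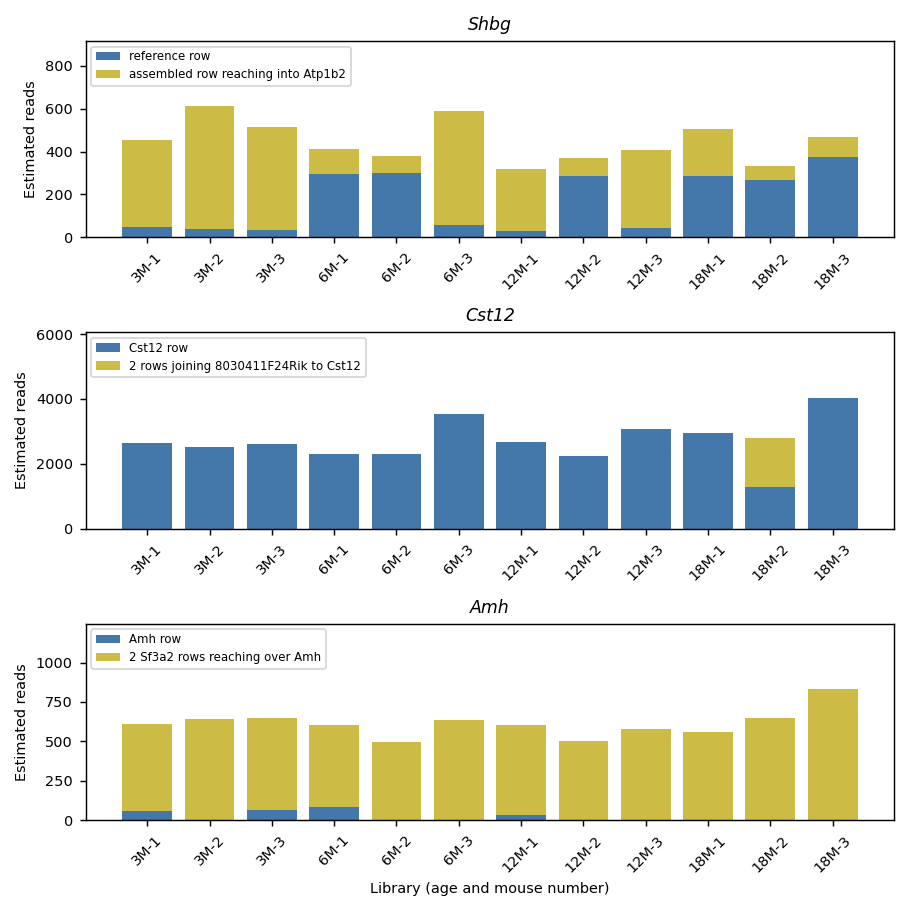
Estimated reads per library at Shbg, Cst12 and Amh, stacked by the transcripts among which the reads of each locus were shared out. The 2 Shbg transcripts exchange their shares between libraries, the joined Cst12 transcripts appear in 18M-2 alone with 1518 reads, and the Sf3a2 transcripts over Amh are present in every library.

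Cyp19a1, the aromatase that makes estrogens from androgens and is active in several testis cell types, was at 8.05, 8.53 and 7.42 CPM at 3M, 8.71, 8.40 and 7.92 at 6M, 8.88, 8.93 and 9.70 at 12M, and 8.82, 10.04 and 9.58 at 18M. Every mouse of 12M and 18M was above every mouse of 3M. The fitted change was 0.25 with an interval from 0.09 to 0.41, a fold of 1.19, and an adjusted p of 0.177. Only 4 of its 6 transcripts match the reference, and with those 4 alone the change was -0.46. Each of the 4 held a mean share of between 5.79% and 7.62% of the reads of the gene. Their single slopes had SEs between 0.61 and 1.38, so the sign of -0.46 rests on few and uneven reads. The other 2 are assembled transcripts that start within the gene, at chr9:54183404 and chr9:54183296 on the minus strand. They held mean shares of 36.9% and 36.1%. With all transcripts that carry the symbol, intronic and opposite-strand ones included, the change was 0.02 with an adjusted p of 0.926. Gldnos and an assembled intronic transcript overlap the gene on the same strand. Assembled transcripts on the opposite strand overlap it as well, and the libraries do not keep the strand.

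Esr1, estrogen receptor alpha, was at 3.69, 3.74 and 3.37 CPM at 3M, 4.18, 3.60 and 4.63 at 6M, 3.21, 3.20 and 3.01 at 12M, and 3.10, 3.42 and 2.02 at 18M. The 12M mice were below the 3M mice without overlap, whereas 1 of the 18M mice was within the 3M range. Its fitted change was -0.46 with an interval from -0.83 to -0.10 and an adjusted p of 0.242. Without 18M-3 it was -0.29 with an adjusted p of 0.490, and without 6M-3 it was -0.40. Esr2, estrogen receptor beta, held 19, 0 and 0 reads at 3M, 8, 2 and 18 at 6M, 15, 24 and 8 at 12M, and 10, 4 and 17 at 18M. At this depth a change of Esr2 was not detectable, since its interval ran from -1.83 to 2.89.

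The secreted and lysosomal proteins ranged from Clu, among the highest genes of the set, to Il1a, among the lowest. Clu, the secreted chaperone clusterin, was at 719, 715 and 713 CPM at 3M, 701, 705 and 919 at 6M, 729, 726 and 685 at 12M, and 724, 703 and 690 at 18M. Apart from 6M-3 the libraries were within a narrow band. The fitted change of Clu was -0.07 with an interval from -0.25 to 0.11, and -0.01 without 6M-3. Ctsl, the lysosomal protease cathepsin L, had a fitted change of 0.07, Trf, the iron carrier transferrin, had 0.08, and Aard, a gene named for its alanine- and arginine-rich domain, had 0.02. Trf overlaps Srprb on the same strand. Clu, Ctsl, Aard and Cst12 were the 4 of this group with their highest value in 6M-3.

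Cst9 (testatin) and Cst12 are neighboring cystatin genes on chromosome 2, related to inhibitors of cysteine proteases and expressed in the testis. Cst9 was at 80.9, 76.4 and 79.2 CPM at 3M, 75.1, 76.3 and 90.2 at 6M, 80.3, 77.1 and 83.0 at 12M, and 89.1, 87.0 and 94.4 at 18M. The 18M mice were above all mice of 3M and 12M, and 6M-3 lay among them. Its fitted change was 0.18 with an interval from 0.04 to 0.31, a fold of 1.13, and its adjusted p was 0.243. Without 6M-3 it was 0.20, with an adjusted p of 0.167.

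Cst12 was at 50.6, 44.5 and 45.3 CPM at 3M, 45.5, 45.7 and 61.6 at 6M, 45.5, 42.0 and 48.5 at 12M, and 52.0, 24.5 and 56.3 at 18M. The mouse 18M-2 was far below the other 11. In that library 1518 reads were given to 2 assembled transcripts that join Cst12 to the upstream gene 8030411F24Rik and end at the same base as Cst12, and no other library had a read in them. With these reads Cst12 was at 53.3 CPM in 18M-2. The 18M mean was then 53.9 ± 2.21 CPM against 46.8 ± 3.29 at 3M (SD, n = 3 each), in place of 44.3 ± 17.3 without them. The joined transcripts are 1096 and 781 bases long, against 546 for Cst12, and include sequence of 8030411F24Rik. How many of the 1518 reads came from Cst12 was not tested, so 53.3 and 53.9 CPM may be too high. The promoter windows of the 2 cystatin genes are set beside each other here, since the start of Cst12 is the point at which the joined transcripts run past an annotated start. They are on the plus strand of GRCm38.p6, at chr2:148789115-148789414 for Cst12 and chr2:148834897-148835196 for Cst9, with the first 50 bases of the annotated transcript in capitals.
Cst12: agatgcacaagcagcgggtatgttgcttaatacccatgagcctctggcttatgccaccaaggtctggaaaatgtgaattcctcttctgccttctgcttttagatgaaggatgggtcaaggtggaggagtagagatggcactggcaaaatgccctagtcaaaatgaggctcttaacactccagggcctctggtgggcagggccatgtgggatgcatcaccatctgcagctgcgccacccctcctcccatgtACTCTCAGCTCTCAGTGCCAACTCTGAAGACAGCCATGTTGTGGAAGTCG
Cst9: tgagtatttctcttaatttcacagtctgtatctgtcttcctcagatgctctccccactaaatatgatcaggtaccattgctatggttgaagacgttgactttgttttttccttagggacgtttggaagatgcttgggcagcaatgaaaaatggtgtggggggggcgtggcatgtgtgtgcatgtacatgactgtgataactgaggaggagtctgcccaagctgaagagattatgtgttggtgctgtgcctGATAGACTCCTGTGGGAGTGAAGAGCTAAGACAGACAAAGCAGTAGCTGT
Both genes were among the highest of the set by FPKM, at means of 80.4 and 113.

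Il1a, the cytokine interleukin 1 alpha, had the smallest p of the set in the slope. It was at 0.724, 0.475 and 0.608 CPM at 3M, 0.118, 0.416 and 0.367 at 6M, 0.187, 0.206 and 0.205 at 12M, and 0.229, 0.171 and 0.0558 at 18M. All mice of 12M and 18M were below all mice of 3M, and the level was under 1 CPM throughout. The fitted change was -1.92 with an interval from -2.94 to -0.90, a fold of 0.265, and an adjusted p of 0.131. The reads behind these values were few, with 38, 27 and 35 at 3M and 13, 9 and 4 at 18M. An assembled transcript of 1 exon on the same strand, at chr2:129299022-129304618, overlaps the gene and held between 326 and 433 reads in each library. With its reads added, the change of Il1a was -0.36 with an adjusted p of 0.220, so the size of the change depends on which reads are counted as Il1a. Gm14023 lies on the opposite strand of Il1a, and reads of the 2 cannot be told apart by strand.

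Of the 6 genes of the cytoskeleton and of adhesion, Nes and Cdh2 had an unadjusted p of 0.05 or less in the slope. Nes, the intermediate filament protein nestin, was at 1.54, 1.93 and 1.58 CPM at 3M, 1.85, 1.39 and 2.55 at 6M, 1.31, 1.53 and 1.31 at 12M, and 0.988, 1.23 and 1.03 at 18M. Every 18M mouse was below every other mouse, and the 6M mice were the most spread. The fitted change was -0.76 with an interval from -1.21 to -0.31, a fold of 0.591 and an adjusted p of 0.154, and it was -0.64 without 6M-3. Cdh2, N-cadherin, which joins Sertoli cells to each other and to germ cells, was at 64.5, 69.6 and 62.7 CPM at 3M, 65.0, 66.0 and 61.2 at 6M, 59.5, 68.2 and 55.8 at 12M, and 57.2, 54.5 and 56.2 at 18M. The 18M mice were below all mice of 3M and 6M, and 2 of them were above the lowest 12M mouse. Its fitted change was -0.22 with an interval from -0.36 to -0.09, a fold of 0.856, and an adjusted p of 0.162. Cdh2 and Nes were the 2 genes that DESeq2's slope called.

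Vim, the vimentin of the Sertoli cell cytoplasm, had a fitted change of -0.10, or -0.02 without 6M-3, and its highest value, 75.3 CPM, in 6M-3, while the other 11 libraries lay between 46.6 and 54.2. Espn, the actin-bundling espin of the ectoplasmic specialization, had -0.22 (adjusted p = 0.476), with 18M mice at 117, 92.5 and 73.3 CPM that spanned most of the range of the 12 libraries. Krt8, a keratin that marks immature Sertoli cells, had 0.09. Its partner keratin Krt18 had a fitted change of 0.61 with an interval from -0.07 to 1.3, and was under 1 CPM in all libraries.

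The phagocytosis group holds the receptors Tyro3, Axl and Mertk, their ligand Gas6, which bridges them to phosphatidylserine on dying cells, and Elmo1, a cytoplasmic protein of engulfment. Gas6 was at 62.2, 70.0 and 71.9 CPM at 3M, 57.7, 65.4 and 65.5 at 6M, 59.0, 70.6 and 54.8 at 12M, and 61.1, 55.7 and 55.0 at 18M. The 18M mice were all below the 3M mice, with a gap between 61.1 and 62.2 CPM, and overlapped with 6M and 12M. Its fitted change was -0.22 with an interval from -0.40 to -0.04, and its adjusted p was 0.252.

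Tyro3 was at 50.8, 54.0 and 50.7 CPM at 3M, 48.4, 50.6 and 66.6 at 6M, 52.7, 55.0 and 44.0 at 12M, and 49.7, 47.0 and 46.0 at 18M. The gap between the 18M and the 3M mice was again narrow, and the fitted change of -0.16 had an interval from -0.39 to 0.06. Mertk had a fitted change of -0.15 with 6M-3 at 11.3 CPM and the other libraries between 6.22 and 8.79. Axl varied most, with 24.7, 47.3 and 44.2 CPM at 3M, 42.8, 29.1 and 28.5 at 6M, 24.9, 41.7 and 20.6 at 12M, and 25.3, 20.7 and 42.6 at 18M. High and low Axl values occurred at each age, and its fitted change of -0.38 had an interval from -1.02 to 0.26. Elmo1 had a fitted change of 0.08 with an interval from -0.04 to 0.20. Of the 5 genes in this group 4 had negative fitted changes, and none passed the adjusted test.

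Wnt4 and Rspo1 are signals of the Wnt pathway, known from the fetal gonad for the ovarian side of sex determination, and both were low here. Wnt4 held 21, 0 and 25 reads at 3M, 20, 10 and 112 at 6M, 4, 0 and 10 at 12M, and 17, 19 and 8 at 18M. The 112 reads of 6M-3 were more than the summed Wnt4 reads of the 3 mice at 3M, at 12M or at 18M. The fitted change was -1.39 with an interval from -4.12 to 1.34, and -0.41 without 6M-3. Rspo1, with a mean FPKM of 0.310, had a fitted change of 0.32 with an interval from -0.51 to 1.15.

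The last group serves glucose uptake and lactate. Slc2a1 and Slc2a3 are glucose transporters, Slc2a3 is also strong in germ cells, and Ldha is the subunit of lactate dehydrogenase found in most cells. Ldha was at 911, 881 and 924 CPM at 3M, 899.5, 898 and 870.2 at 6M, 886, 894 and 837 at 12M, and 906, 901 and 936 at 18M. It was the steadiest gene of the set, with a fitted change of 0.01 and an interval from -0.07 to 0.09, and its sign turned in 4 alternatives. Slc2a3 was at 1338, 1408 and 1103 CPM at 3M, 1317, 1315 and 1155 at 6M, 1175, 1224 and 1088 at 12M, and 1125, 1139 and 1190.0 at 18M. The ages overlapped, since 3M-3 was low. Its fitted change was -0.17 with an interval from -0.33 to -0.01 and an adjusted p of 0.306.

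Nearly all Slc2a3 reads were assigned to 2 assembled transcripts that share most of their sequence, and one of these held between 3.55% and 93.9% of the reads of the gene in a library. For Slc2a1, with a fitted change of 0.00 and an interval from -0.20 to 0.20, the share of the leading transcript ran over 97.1 percentage points. Such exchange was common in the set. Of the 20 genes with several transcripts, 8 had a leading transcript whose share ranged over more than 50 percentage points among the libraries, and for 10 of the 36 genes the leading transcript was an assembled one. The sums per gene do not carry this exchange as long as both transcripts have the gene's symbol and neither takes in another gene. Shbg is an exception, since its assembled transcript takes in Atp1b2 and its sum can hold reads of that gene.

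The level of the set as a whole was the sum of CPM over the 36 genes. The 3M mice had a sum of 3976 ± 148, the 6M mice 4033 ± 140, the 12M mice 3795 ± 161 and the 18M mice 3816 ± 51.4 (SD, n = 3 each). The sums of single mice ran from 3808 to 4087 at 3M and from 3758 to 3855 at 18M, so the ages overlapped. The ratio of 18M to 3M was 0.960, and between 0.940 and 0.974 with any 1 of these 6 libraries left out. Much of this difference lay in Slc2a3, with means of 1283 CPM at 3M and 1151 at 18M. Without Slc2a3 the sum was 2693 ± 12.7 at 3M and 2665 ± 46.2 at 18M. Without Slc2a3, Ldha and Clu the sum was 1071 ± 9.94, 1106 ± 125, 1047 ± 40.9 and 1045 ± 34.0 at the 4 ages in order. The sum of all 36 genes and that without Slc2a3, Ldha and Clu were highest at 6M through 6M-3. The mice 6M-1 and 6M-2 had means of 3952 and, without those 3 genes, 1034, both below the 3M means.

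A further list of 26 genes of Sertoli cells, among them Inha, Cldn11 and Gja1, was read in the same way. None of the 26 passed the adjusted slope test, 0 were higher and 5 lower at an unadjusted p of 0.05 or less, against 7.45% and 7.81% of all genes, and the median fitted change was -0.06. The smallest adjusted p-values of this list belonged to Ccnd2, a cyclin, with a fitted change of -0.73 (adjusted p = 0.0984), and Cxcl12, a chemokine, with -0.76 (adjusted p = 0.108). Inha, the inhibin alpha subunit, had -0.29 (adjusted p = 0.269), while Cldn11, the claudin of the barrier, had -0.06. In 6M-3 this list was high as well, with a median log2 ratio of 0.27 and 13 of 26 genes at their highest there.

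Markers of other testis cells were read beside the set. Of 9 Leydig cell genes, Cyp17a1 and Cyp11a1 were called lower with age, and their list had a median fitted change of -0.88. Its summed CPM lay between 964 and 1126 at 3M and between 618 and 857 at 18M, and neither gene of this pair is in the Sertoli cell set. Of the lists for peritubular myoid cells (6 genes), endothelium (6), macrophages (7), spermatogonia (7), spermatocytes (7) and spermatids (7), 0 genes were called, with medians of -0.19, -0.20, -0.33, -0.05, -0.01 and 0.19. The spermatid sum ran from 13661 to 15138 CPM at 3M and from 14255 to 16983 at 18M, and was highest, at 18781, in 12M-3, the library with the lowest value for 8 of the 36 Sertoli cell genes. Of 6 genes listed for the epididymis, Lcn5 and Adam7 had 0 reads in all 12 libraries, 3 more were under 1 CPM, and Lcn2 was at 139.7 ± 19.3 CPM at 3M, 103 ± 21.2 at 18M (SD, n = 3 each) and 221 in 6M-3. The part of these lists in the values of single Sertoli cell genes was not tested.

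RefSeq promoter windows, from 250 bases before to 50 bases after an annotated start, were at hand for 25 of the 36 genes, in 33 windows. AACAAT, the core bound by SOX factors, occurred on either strand in 4 of the 33 windows (12.1%), those of Il1a, Hopx, Cyp19a1 and Ctsl, and in 10.7% of all 32851 windows. AGATAA, a core for GATA factors, occurred in 2 (6.06%), those of Shbg and Krt8, against 11.2% of all windows. In the Shbg window printed above it lies in the lower-case part. TGACGTCA, the full cyclic AMP response element, occurred in 1 (3.03%), that of Ldha, against 1.79%. A match is a description of the letters in the window, and the shares of the set were read only beside those of all windows.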

How the data were processed

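Total RNA of mouse testis, depleted of ribosomal RNA, was sequenced in pairs with a kit that does not keep the strand. The authors aligned the reads to mm10 with HISAT2 and assembled and quantified transcripts with StringTie 1.3.3b. The deposited counts are estimated counts, equal to coverage times length over 101 bases, rounded up to whole numbers (863604 values checked, 3 off by 1 read). The deposited FPKM values, which the authors scaled by length and mapped fragments, served for levels.

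Here, counts were summed per gene over transcripts that match the reference, lie within it, share a junction with it or otherwise overlap its exons. Of the 114 transcripts with a symbol of the set, 105 were used. Remaining transcripts, such as intronic, opposite-strand and unannotated ones, were summed per locus, and these loci are counted among all genes tested. Library totals lay between 50924104 and 71803379 reads; counting error applies to genes of few reads. edgeR 4.0.16 in R 4.3.3 was used (TMM, filterByExpr with a minimum count of 10, quasi-likelihood F-test, Benjamini-Hochberg adjustment over all genes tested, calls at 0.05), with 12 libraries for age and 6 for pairs of ages. The scripts were tested on simulated data. Alternatives were DESeq2 1.42.0, limma 3.58.1 on log2(FPKM + 1) or (FPKM + 0.1), other normalizations, filters, dispersions and row choices, age on a log2 scale, all 12 libraries in a pairwise fit, a replicate block, and each library left out. Chosen after seeing the data were Cst12 with its joined transcripts, the highest library by FPKM, and the ratio of Amh reads. So were the sum without Slc2a3 and the sum without Slc2a3, Ldha and Clu. Groups came from the labels. Values in every library are given for genes called, the 8 smallest p-values of the slope, genes whose 3M and 18M mice did not overlap, the 3 highest and 3 lowest by FPKM, and Sox9, Wt1, Gata4, Fshr and Amh. Values of Axl in every library were added after they were seen. The genes of the set and the marker lists were chosen with earlier results of these data known. Tables and figures were made in Python 3.11.15 (pandas 2.3.3, matplotlib 3.10.9).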

Additional observations from a re-analysis of the deposited data

Results flagged for a closer look

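The table holds 9 transcripts that carry a symbol of the set but neither match the reference nor share a junction with it, and their reads were left out of all tests but the alternative with transcripts of any class. At Cyp19a1 4 of them had mean CPM values, over 12 libraries, of 3.37 and 18.4 (opposite strand), 34.3 (within an intron, opposite strand) and 15.4 (within an intron, same strand), which is above the CPM of Cyp19a1 itself in 3 cases. At Il1a the single-exon transcript had a mean of 6.84 CPM. At Elmo1 an intronic transcript of the opposite strand had 4.44 CPM. Opposite-strand transcripts at Ldha and Aard had 0.550 and 0.545 CPM. At Slc2a3 an opposite-strand transcript of 200 bases had a mean of 0.125 CPM, with all of its 76 reads in 6M-1.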

How the results depend on the processing

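In the slope, the 0 genes called became 11 at an unadjusted p and 2 with DESeq2 (Cdh2 and Nes); in the test for any age, 0 became 7 at an unadjusted p. Between ages, 0 became 2 (3M and 6M), 5 (6M and 12M), 1 (12M and 18M) and 7 (3M and 18M) at an unadjusted p, and between 3M and 18M it became 1 with reference-matching transcripts only (Shbg, log2 change 2.79, adjusted p = 0.0155). With a library left out, the range between 3M and 18M was 0 to 1 (Amh without 3M-2), and it was 0 in the other gene tests, while the calls over all genes in the slope ran from 13 to 115 and were 13 without 18M-3. For transcripts, the slope gave 0, 6 at an unadjusted p and 2 with DESeq2 (Il1a and Nes), which called 1075 over all transcripts, against 6 with edgeR. The 1 transcript called between 3M and 18M became 7 at an unadjusted p, 9 with DESeq2 (2087 over all transcripts, against 59) and 0 with no filter. It became 0 with the replicate block, and 0 with any of the 6 libraries left out. DESeq2 was run without the filter on low counts, so its counts and those of edgeR have unlike bases.

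The mouse numbers did not pair the libraries: deviations of same-numbered libraries correlated between -0.05 and 0.06 over 18 pairs. With this number as a block, 0 genes of the set were called in each gene test, and over all genes the slope called 23 in place of 45.

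Of 476 alternative values for the 20 genes given in full, 460 kept their direction and side of the threshold and 14 changed sign. With reference-matching transcripts only, the changes were -0.46 for Cyp19a1, 1.45 for Shbg, 2.31 for Slc2a3 and 0.056 for Gata4. For Slc2a3 this was NM_011401 alone, with a mean share of 0.093% of the reads of the gene and a mean of 1.11 CPM. With limma on FPKM, Shbg was 0.40 at a pseudocount of 0.1 and 0.32 at 1, with and without the filter. With log2 of age, Ldha was -0.0034 and Sox9 0.025. With a library left out, Ldha ran from -0.0133 to 0.0211, with -0.000530 and -0.000548 also below 0, and Sox9 from -0.11 to 0.051, with 0.037 also above 0. Cst12 in 18M-2 became 53.3 CPM with all reads of the joined transcripts counted as Cst12. The cause of these differences was not tested beyond the read shares given above.

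The limits are those of 3 mice per age, whole-testis RNA without strand, and estimated reads shared among overlapping transcripts. For Esr2, Wnt4, Amh, Rspo1 and Il1a the reads were too few for a change to be bounded closely.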
